A study of Mus musculus with 2 samples.

Results

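The 10 genes described here handle iron and other metals in macrophages and related cells: the transferrin receptor gene Tfrc, the metal transporter genes Slc11a1 and Slc11a2, the ferritin genes Fth1 and Ftl1, the iron exporter gene Slc40a1, the heme oxygenase gene Hmox1, the iron sensor gene Ireb2 and the metallothionein genes Mt1 and Mt2. They were taken as the array probes outside the controls whose gene name equals one of these symbols, which gave 18 of 56605 probes and 10 of 37074 gene names. Total RNA labelled as mouse blood was read on 1-colour Agilent arrays, 1 of a sample exposed to heat and 1 of its control, both on the same slide and in the same scan. Heat meant 1 h at 37 °C in a water bath as pretreatment followed by 1 h at 38.5 °C, per the labels, and the question was which genes respond to it. Temperature and time of the control, strain, sex, age, and whether animals or drawn blood were warmed are not given in the sources used here, so heat and handling cannot be told apart. Although 3 replicates are mentioned in the labels, 1 array stands for each group, and none of the differences has a replicate check or a p-value. Signals well above background were read for 30481 probes with heat and for 29460 without.

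Iron enters most cells on transferrin through the transferrin receptor, is carried out of endosomes and phagosomes by SLC11 transporters, is stored inside ferritin and leaves through ferroportin, the product of Slc40a1. Macrophages also take up red cells and release their iron with heme oxygenase. When iron is scarce, iron regulatory proteins bind stem-loops in mRNAs of this pathway, which stabilises the transferrin receptor mRNA and blocks translation of ferritin mRNA. Metallothioneins are small cysteine-rich proteins that bind zinc and copper, and their genes are switched on by metals, glucocorticoids and stress.

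Of the 10 genes, Tfrc was the lowest in the heated sample against the control, at -0.60 on the log2 scale, or 1.52-fold lower, and Mt2 the highest, at 0.44 or 1.36-fold higher. The other 8 lay between -0.10 and 0.11. These differences are heat minus control of log2 processed signal, scaled on the 75th percentile of each array and averaged over the probes of a gene that the scanner software marked as well above background on both arrays. A size of at least 0.5 (1.41-fold) was reached by 1 of the 10 genes, Tfrc, against 4.38% of all 18562 genes measured. No member reached 1 (2-fold), against 0.663% of all genes. Below 0 were 5 of the 10, against 47.8% of all genes. The median difference was -0.02 over the members and 0.01 over all genes, and the median size was 0.10 over both. The median size of the members was thus that of all measured genes, dim ones included, with Tfrc and Mt2 at the edges of the set. All 10 members were above the 75th percentile of both arrays, where 1.13% of genes reached 0.5. A median size for such brighter genes was not computed. Genes and probes are not replicates of the treatment.

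**Figure D1:**
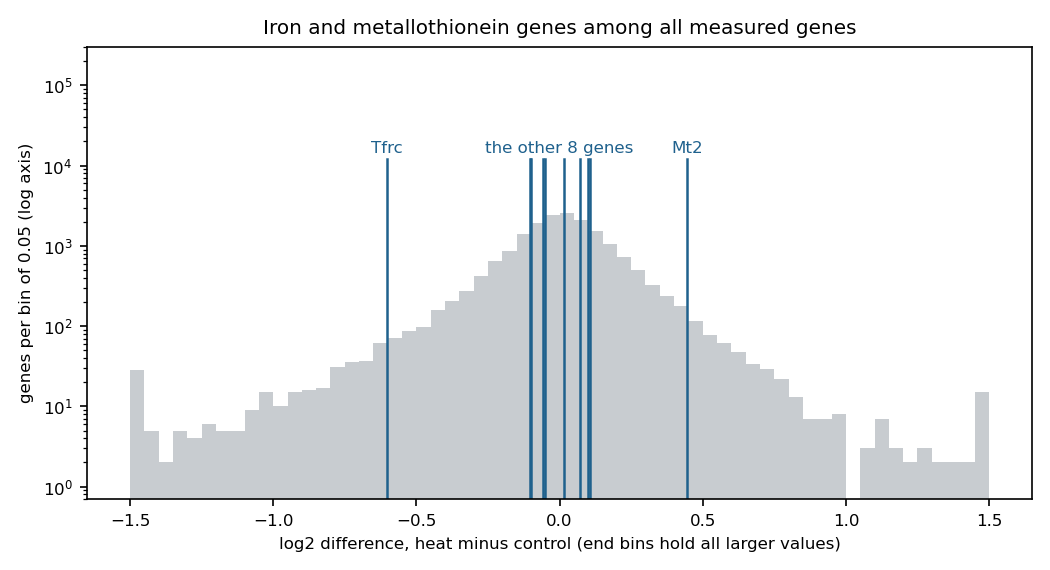
Number of genes (log axis) by log2 difference, heat minus control, for all 18562 measured genes, with lines for the 10 iron and metallothionein genes. Tfrc stands at -0.60 and Mt2 at 0.44, and the other 8 genes lie in the centre between -0.10 and 0.11.

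Because the values come from single oligonucleotides, their identity matters for reading them. Each probe is a 60-base oligonucleotide of the sense strand. The last 30 bases of 9 of them are shown 5′ to 3′, since they distinguish probes of 1 gene that read different parts of its transcripts. Capitals mark AATAAA, the hexamer that directs mRNA cleavage and polyadenylation and so sits close to the 3′ end of a transcript.
Tfrc, A_65_P06446: taagctggaactttcacagaatcaaaatgt
Tfrc, A_52_P228236: aaccatcattacgcatctaatcagttttgc
Mt2, A_51_P246317: ctcgttctccacaactttttctataaagca
Mt1, A_66_P111660: gtacgtgaatAATAAAagcctgtttgagtc
Mt1, A_52_P423810: cggaggccattgtattgtctcggggacaga
Slc11a2, A_51_P388737: ttgttatAATAAAgttcatgcttaatagct
Slc11a2, A_52_P196476: acggtacttcaacagtacagtaacctgtaa
Ftl1, A_55_P2851873: ggaccaagtaaaAATAAAgctttttgagac
Slc40a1, A_51_P389988: cctttcaatatccctgagaagAATAAAgaa
The hexamer was found in this stretch of 4 of the 18 probes and of 8.13% of all probes on the array, and the related ATTAAA in 0 of the 18 and 2.81% of all (this strand only). The 4 probes with it differed by -0.16 to 0.08. The hexamer is a description of where a probe reads.

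**Figure D2:**
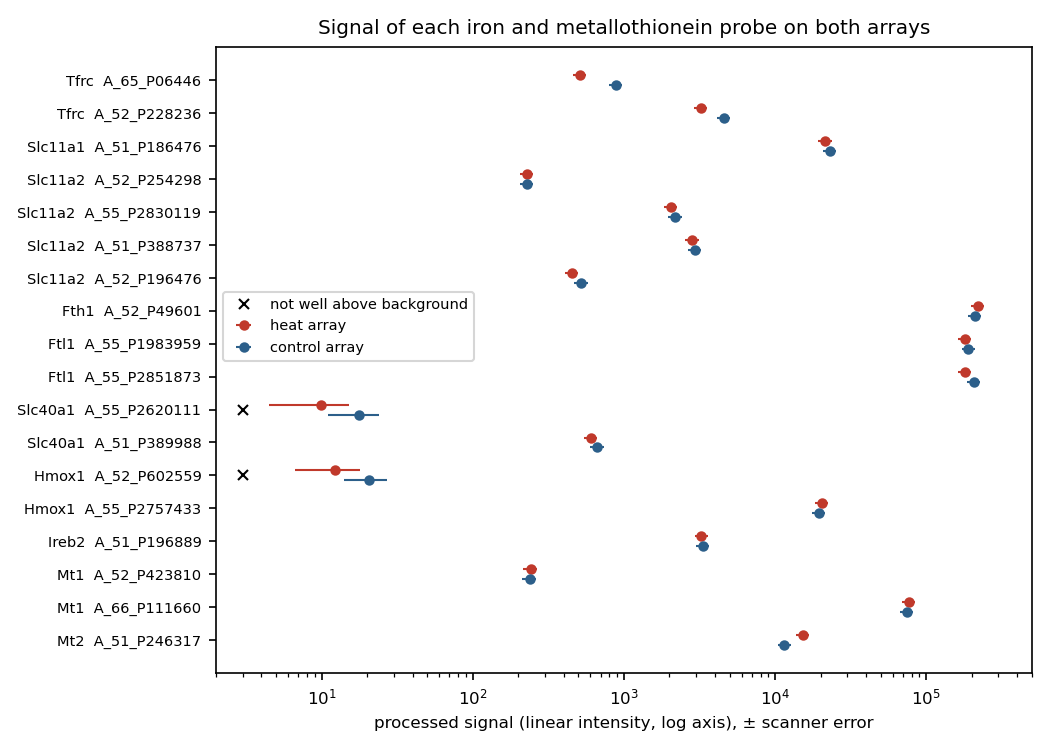
Processed signal (linear intensity on a log axis) of each of the 18 probes on the heat array and the control array, with the scanner software's error. Heat and control lie apart beyond these errors at both Tfrc probes and at Mt2, and crosses mark the 2 probes not well above background. Signals of different probes depend on the oligonucleotide and are not compared with each other.

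Among the uptake genes, Tfrc was lower in the heated sample at both of its probes. The first, A_65_P06446 (mm9 chr16:32620470-32620529), reads position 1228 of the transcript record NM_011638 and is free of stop codons in 1 of 3 frames. It gave a processed signal of 511 ± 51.3 with heat and 885 ± 88.7 without, where ± is the scanner software's error of a spot, or a difference of -0.75 ± 0.20. The second, A_52_P228236 (mm9 chr16:32632255-32632314), reads position 4288 of the same record, 11785 bases further along the gene, and has stop codons in every frame. It gave 3240.2 ± 324 against 4557 ± 456, or -0.45 ± 0.20. Both probes thus put the heated sample below the control, by more than 2 times the scanner error at these settings. With normexp background correction or mean minus local background the second probe had -0.38, less than 2 times its error. Of the 4085 genes with 2 usable probes, 15.3% had a gap between them at least as wide as the 0.30 seen here. The probe past 0.5 was the first, and 4.41% of all usable probes were past it. The scanner error covers the reading of a spot and not the spread between animals. It was a near-fixed share of the signal, so the error of a difference was 0.20 to 0.21 at every usable member probe. A multiple of it is thus a near-fixed cut on the difference. Single-spot differences of probes printed several times had a smaller SD, 0.0809.

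The mean over both Tfrc probes was -0.60 ± 0.14. Here and below, the ± of a mean takes the scanner errors of its probes as independent. It would be larger if the probes of an array shared an error. Counted from the lowest of all 18562 genes, Tfrc ranked 299. A value at least 0.5 lower was seen in 2.52% of all genes, in 0.61% of the 6553 genes with several usable probes and in 0.713% of the 8842 genes above the 75th percentile of both arrays, a subset chosen after the values had been seen. In that subset, which holds all 10 members, 1.13% reached 0.5 in either direction and 36 genes (0.407%) were as low as Tfrc. Of the 6553 genes, 35 had such a mean and every probe lower, and Tfrc was among them. With the brighter probe alone, Tfrc stood at -0.45 and no member reached 0.5.

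Tfrc is highly expressed in red cell precursors and in dividing cells, so markers of both were read beside it. Of 9 red cell precursor genes, 2 were detected on each array, Hba-a1 and Epor, and Hbb-b1, Alas2, Klf1, Gata1, Slc4a1, Ahsp and Tfr2 were not well above background on either. The RNA preparation lyses red cells apart from white cells and removes globin RNA, so the globin genes and this sum do not measure how many such cells the blood held. The summed signal of the 2, in units of each array's 75th percentile, was 0.163 with heat and 0.171 without. All 8 genes of dividing cells were detected, with a summed signal of 313 against 320.5 and differences from -0.10 (Mcm5) to 0.09 (Top2a). The part of either cell type in the Tfrc difference was not tested. In RNA from mixed cells, fewer cells of a type and less RNA per cell cannot be told apart.

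The labels call the tissue blood, but most markers of red cell precursors, platelets and B cells were not well above background, while those of macrophages and of dividing cells were. All 10 markers of monocytes and macrophages, among them Csf1r, Adgre1 and Cd68, were detected on both arrays, with a summed signal of 448 against 432. Of these 10, 9 were higher in the heated sample, from 0.00 (Adgre1) to 0.73 (Ccr2, a dim probe with signals of 113 and 69.9), and Cd68 had -0.00. Of all genes, 47.8% were lower, and with 1 array a group this count of directions has no test. Of 4 B cell markers only Cd79b was detected, of 5 platelet markers only Pf4, and of 4 liver genes none. Of 7 neutrophil markers 5 were detected, not Cxcr2 and Ly6g, and of 6 T cell markers 4, not Cd3g and Cd8a. Of 4 NK cell markers 2 were detected, Klrb1c and Prf1, the latter at -1.68 with signals of 46.0 and 152. Summed signals were 97.6 against 96.5 for neutrophil and 19.0 against 15.8 for platelet markers. They were 0.94 against 0.88 for T cell, 0.36 against 0.29 for B cell and 0.14 against 0.31 for NK cell markers. T cell markers ranged from signals of 59.4 and 49.8 (Cd3d) to 1447 and 1410 (Cd4, brightest probe). Such sums depend on the markers and probes chosen and are not cell counts. The part of these cell types in the members' differences was not tested.

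Slc11a1 encodes NRAMP1, a divalent metal transporter of the phagosome membrane of macrophages that withholds metals from engulfed microbes. Its 1 probe (mm9 chr1:74432161-74432220) gave 21466 ± 2147 with heat and 22960 ± 2296 without, a difference of -0.06 ± 0.20. The arrays therefore overlapped within the scanner error.

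Slc11a2 encodes DMT1, which moves iron out of the endosome after transferrin uptake, and is made as several transcripts with different 3′ ends. Its 4 probes had signals of 228 and 228, 2048 and 2185, 2836 and 2955, and 452 and 522 on the heat and control arrays, in the order of the positions given next. The differences were 0.04 at position 253, -0.06 at position 2082 and -0.02 at position 2961 of the record NM_008732 (transcript variant 2), and -0.17 at position 4055 of NM_001146161 (transcript variant 1). The variant 1 probe, A_52_P196476 (mm9 chr15:100223347-100223406), was the lowest of the 4, but all 4 differences were smaller than their scanner errors of 0.20 to 0.21. The mean was -0.05 ± 0.10. In contrast to Tfrc, neither SLC11 transporter gene thus differed beyond the scanner error.

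Ferritin heavy and light chains, encoded by Fth1 and Ftl1, form the shell in which iron is stored, and the heavy chain oxidises iron on entry. The probe of Fth1 (mm9 chr19:10059485-10059544) gave 218611 ± 21861 against 209762 ± 20976, a difference of 0.10 ± 0.20. Of the 2 probes of Ftl1, A_55_P1983959 is placed across 482 bases of the genome, so it joins parts that lie apart in the gene, and gave 179063 against 190048, or -0.05 ± 0.20. The other, A_55_P2851873 at the 3′ end (mm9 chr7:52713318-52713377), gave 180436 against 207179, or -0.16 ± 0.20. The mean of Ftl1 was -0.10 ± 0.14, opposite in sign to Fth1 and, like it, within the scanner error. Ferritin genes have many processed copies in the mouse genome, and a signal cannot be assigned to 1 of several near-identical transcripts.

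A ratio between members on the same array does not depend on a scaling factor between the arrays. Its ± takes the scanner errors of both genes as independent. Tfrc over Fth1 was lower in the heated sample by -0.70 ± 0.25 on the log2 scale, and by -0.71 to -0.55 over 12 ways of processing. Tfrc over Ftl1 was lower by -0.50 ± 0.20, with a range of -0.52 to -0.29. Fth1 over Ftl1 differed by 0.20 ± 0.25. The ratio to Fth1 thus stayed past 2 times the scanner error over these settings, and the ratio to Ftl1 did not in all of them.

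**Figure D3:**
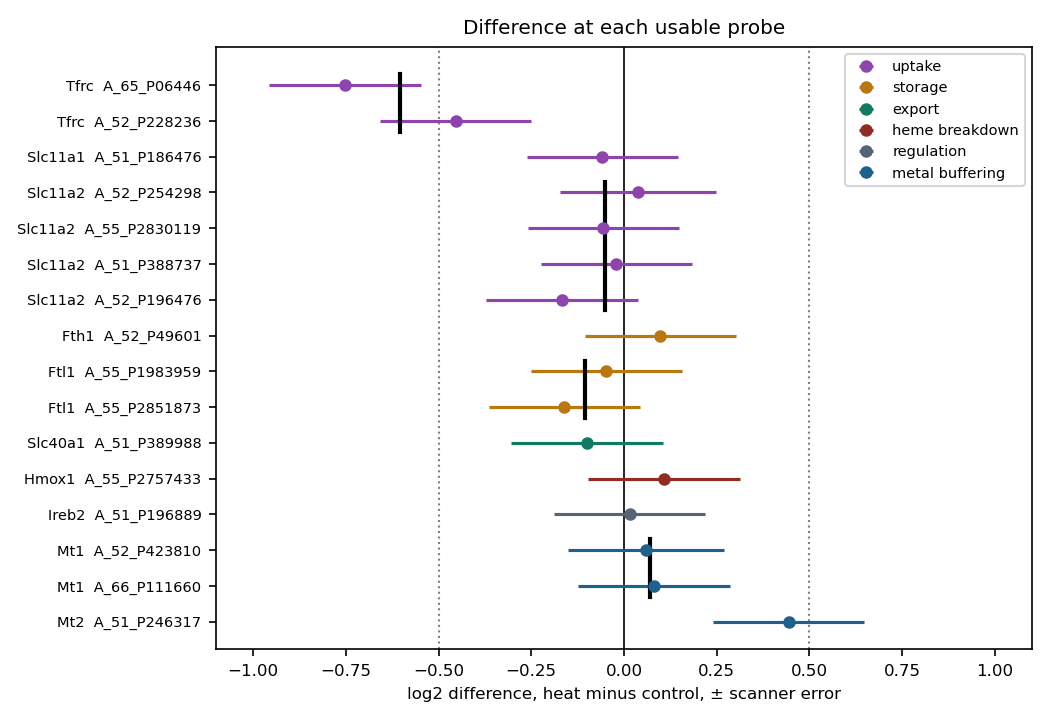
Log2 difference, heat minus control, at each of the 16 probes well above background on both arrays, coloured by role, with the scanner error as bars, gene means as black strokes where a gene has several probes, and dotted lines at 0.5. Both Tfrc probes lie left of 0 and Mt2 right of it by more than their bars, and the other 13 bars cross 0.

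Export and heme breakdown were near equal on both arrays. The probe of Slc40a1 at the 3′ end (mm9 chr1:45965255-45965314) gave 605 ± 60.8 against 667 ± 67.0, or -0.10 ± 0.20. The probe of Hmox1, whose enzyme frees iron from heme and whose gene is known to respond to oxidants and heme, gave 20397 ± 2040 against 19445 ± 1945 (mm9 chr8:77624406-77624466), or 0.11 ± 0.20. Each of these genes has a further probe designed on an Ensembl transcript (ENSMUST00000186755 for Slc40a1 and ENSMUST00000160341 for Hmox1). These gave 9.86 and 17.6, and 12.3 and 20.6, on the heat and control arrays and were not well above background on either, so they have no measured difference. The lowest signals that counted as well above background were 24.9 and 31.0.

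Ireb2 encodes IRP2, an iron regulatory protein that is degraded when iron is plentiful. Its probe (mm9 chr9:54759984-54760043) gave 3256 ± 326 against 3309 ± 331, a difference of 0.02 ± 0.20, the smallest of the 10 genes. Its sign turned without scaling, at -0.02.

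The metallothionein genes Mt1 and Mt2 lie next to each other on chromosome 8, and Mt2 was higher in the heated sample while Mt1 was nearly equal. The probe of Mt2 (mm9 chr8:96697371-96697430) gave 15260.5 ± 1526 with heat and 11521 ± 1152 without, or 0.44 ± 0.20, which is 36.0% higher. The probe at the 3′ end of Mt1 (mm9 chr8:96704165-96704224), 6794 bases away, gave 76780.2 ± 7678 against 74566 ± 7457, or 0.08 ± 0.20. A second Mt1 probe on the predicted record XM_006530752 gave 241 ± 24.7 against 237 ± 24.7, or 0.06 ± 0.21. Both Mt1 probes thus gave small values within the scanner error at these settings, although their signals differ widely, and their mean was 0.07 ± 0.15. With mean minus local background the probe at the 3′ end had 0.10 and the dimmer one 0.16.

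Mt2 rests on 1 probe, and 3.60% of the 12009 genes with 1 usable probe were at least as high. Among the 8842 genes above the 75th percentile of both arrays, 55 (0.622%) were at least as high as Mt2. Mt2 over Mt1 differed by 0.37 ± 0.25, and by 0.35 to 0.40 over 12 ways of processing, less than 2 times its scanner error. Metal response elements are the sites through which the zinc sensor MTF1, encoded by Mtf1, activates these genes. Their core, TGCACNC or TGCGCNC on either strand, was found 3 times in the 250 bases before the RefSeq start of Mt2 (GRCm38.p6) and 1 time in those of Mt1. Of 2 windows of Tfrc, the lowest member, 1 held it 2 times, at overlapping positions on opposite strands, and the other 0 times. The core was found at least 1 time in 21.4% and at least 3 times in 1.26% of all 32851 promoter windows. The heat shock element pair GAANNTTC, which reads the same on both strands, was not found in either window and occurs in 6.69% of all. RefSeq windows were matched for Slc11a1, Ftl1, Mt1, Mt2, Ireb2, Tfrc and Fth1, and not for Slc11a2, Slc40a1 and Hmox1. A RefSeq start can differ from the start used in these cells, and a match is a description of letters. Bases past the RefSeq start were not searched, so the counts of Mt1 and Mt2 do not show which gene has more such sites.

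**Figure D4:**
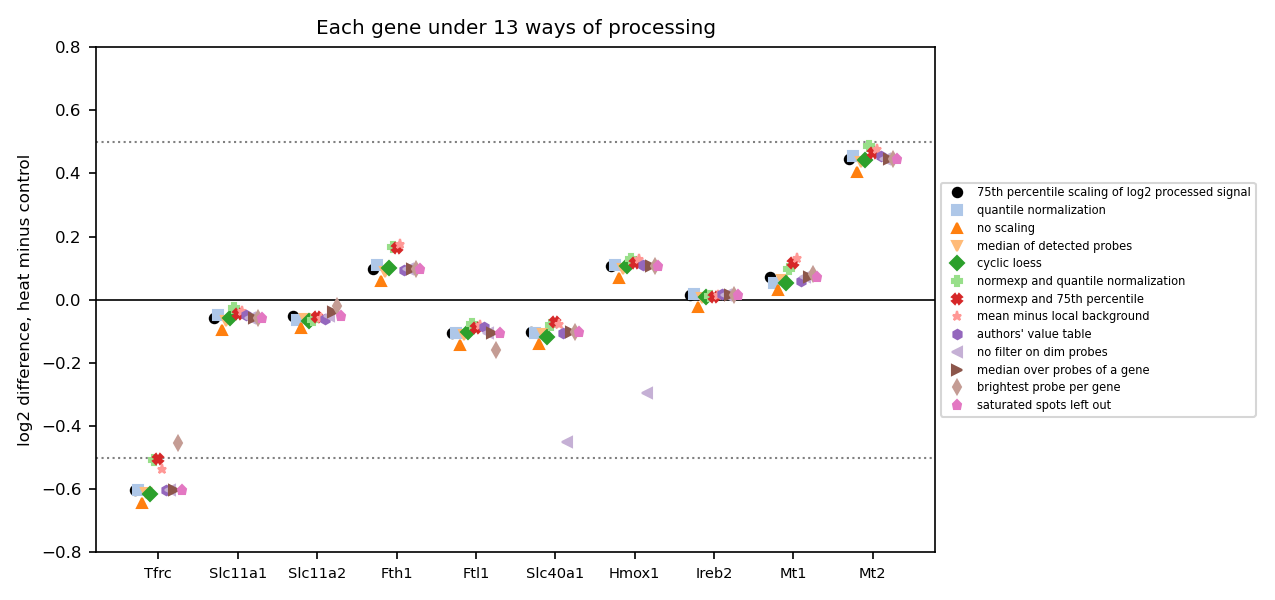
Log2 difference, heat minus control, of each of the 10 genes under 13 ways of processing (points), with dotted lines at 0.5. Tfrc stays below 0 and Mt2 above 0 in all 13, Slc40a1 and Hmox1 move to -0.45 and -0.30 only where dim probes are kept, and Ireb2 lies on either side of 0.

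In the wider pathways of iron, heme, zinc and copper, no gene measured on both arrays was past the same threshold. Of 97 genes in 9 lists, 80 were measured on both arrays, 40 higher and 40 lower in the heated sample, where 47.8% of all genes were lower. A size of 0.5 was reached by 0 of 80, against 4.38% of all genes. The share of all genes includes dim ones, and it was 1.13% among genes above the 75th percentile of both arrays. With 1 array a group this is a count and has no test. The median over the 80 was -0.00. Flvcr2 and Slc30a2 were well above background with heat alone and are not among the 80. Over the whole array, 30481 probes were well above background with heat, 29460 without and 28758 on both. Passing with heat alone was thus more common over all probes than passing in the control alone, and is not particular to these genes. For Flvcr2 the lower bound was 4.35-fold at the main settings, from 1 dim spot per array and without its scanner error.

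Among genes of iron uptake and endosomal release, 8 of 13 were measured, 5 higher and 3 lower. Lrp1, a receptor that also clears heme bound to hemopexin, had 0.32, Mcoln1, a lysosomal cation channel, 0.18 and the zinc and iron importer gene Slc39a14 -0.13. The 3 probes of Lrp1 disagreed, with 0.03, 0.35 and 0.58, and the smallest value was that of the probe with signals of 21687 and 21775. Cd163, the hemoglobin scavenger receptor of macrophages, and Tfr2 were not well above background on either array. Of 4 genes of ferritin loading and turnover, Pcbp1, an iron chaperone, had -0.18, Pcbp2 -0.04 and Ncoa4, the receptor for ferritin autophagy, 0.04. Of 9 genes of export and hepcidin control only Cp (ceruloplasmin), at 0.21, and Hfe, at -0.09, were measured, and Hamp, the hepcidin gene, was not well above background.

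Genes of heme import, breakdown and export were 6 higher and 3 lower of 9 measured, with a median of 0.08. Por, the reductase that supplies heme oxygenase with electrons, had 0.12, Slc46a1 -0.12 and Flvcr1, a heme exporter gene, 0.10, and Hmox2, the constitutive heme oxygenase gene, had 0.02. Of 9 regulators, 2 were higher and 7 lower. Keap1 and Nfe2l2, which encode the sensor and the factor of the NRF2 pathway that drives Hmox1, had 0.25 each, and Aco1, which encodes the iron regulatory protein IRP1, had -0.22. At Aco1 the brighter probe, with signals of 4632 and 4969, had -0.06 and the dimmer one -0.38. Bach1, the heme-sensing repressor of Hmox1, had -0.01. The 2 probes of Nfe2l2 had 0.15 and 0.35, the smaller at the brighter probe, and Keap1 has 1 usable probe.

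Heme synthesis genes were 6 higher and 2 lower of 8 measured, from -0.14 (Uros) to 0.12 (Ppox), with Alas1, the rate-limiting enzyme outside red cells, at 0.07. Of 14 genes of mitochondrial iron and iron-sulfur clusters, 5 were higher and 9 lower. Slc25a37, which encodes the mitochondrial iron importer mitoferrin, had -0.21 and was lower at each of its 4 probes, from -0.39 to -0.09. The -0.09 was that of the brightest probe, with signals of 3104 and 3390. The -0.39 was that of a dimmer one, with 194 and 260. Isca1 had 0.30 through 1 of its 3 probes, at 0.85, while the others had 0.04 and -0.01, and Lyrm4 had -0.13.

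Among other metallothioneins and zinc handling genes, 9 were higher and 9 lower of 18 measured. Mt4 had 0.45, a value close to that of Mt2 but from a dim probe with signals of 67.3 and 50.5, and Mt3 had -0.01. Mtf1 had 0.01 over 4 probes, from -0.07 to 0.07. The zinc exporter gene Slc30a1, a known target of MTF1, had 0.10, Slc30a4 had -0.23 and Slc30a9 had -0.23. The value of Slc30a9 came from a dim probe with signals of 30.4 and 48.8, at -0.64, while its other probes had -0.03 and -0.02. Copper handling genes were 5 higher and 4 lower of 9, led by the copper pump gene Atp7a at 0.20, Sod1 at 0.16 and Commd1 at 0.14. The probes of Sod1 disagreed, with -0.01 at signals of 103295 and 106631 and 0.33 at signals of 494 and 404, and those of Atp7a had -0.01, 0.23 and 0.39. The activity of MTF1 was not measured, and its part in the values of Mt1, Mt2 and Slc30a1 was not tested.

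**Figure D5:**
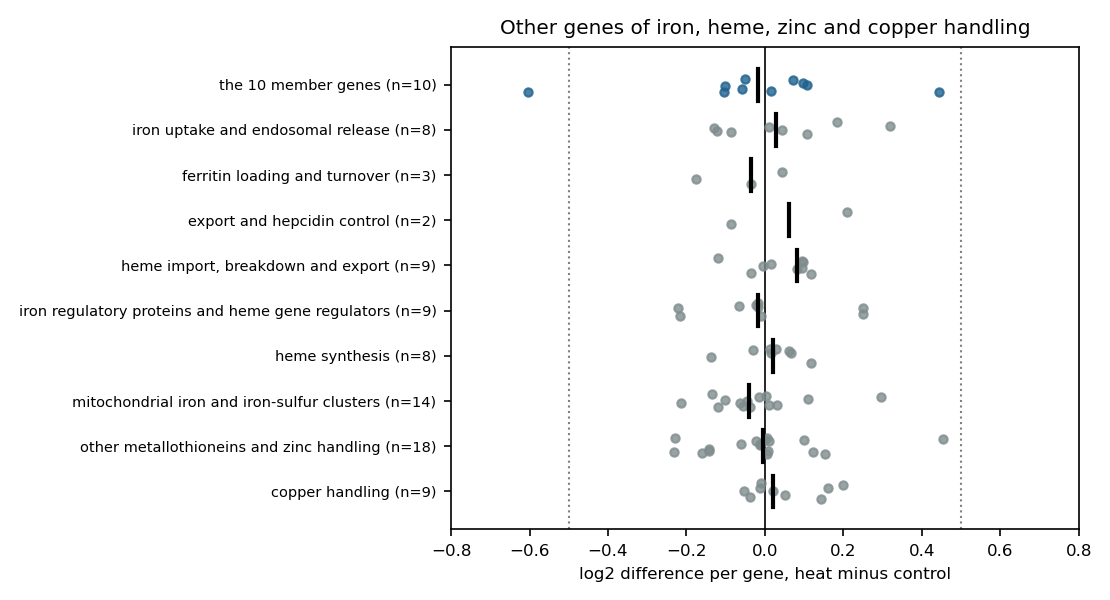
Log2 difference per gene, heat minus control, for the 10 member genes and for 9 lists of related genes, with n measured genes, medians as black strokes and dotted lines at 0.5. Of the points drawn, only Tfrc lies past 0.5, and Mt4 in the zinc list lies close to Mt2.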

How the data were processed

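Per the labels' protocols, the RNA kit separates red from white cells by lysis, globin RNA was removed, and 0.5 µg was labelled with Cy3. The deposited scanner files hold linear intensity values, flags and probe sequences, read with Agilent Feature Extraction 10.7.1.1, with mm9 coordinates, per the file headers; the submitters' processing notes name version 9.1. The authors' deposited value table holds log2 values, which were close to quantile-normalized log2 processed signals (r of 1.000 on each array) with a median of 5.26 in both columns and the same direction. Over spots well above background on both arrays, the heat minus control differences of both versions had an r of 0.990. The largest gap between their values at a spot was 4.14 on the log2 scale.

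Of 62976 spots, 59305 were outside the controls; 168 (heat) and 149 (control) outlier spots were left out, and none was saturated. Spots of a probe were averaged after log2, and the 75th percentile over probes, 604 and 620.5 before log2, was subtracted. Pearson's r between the arrays, across 28758 usable probes, was 0.997. The number of arrays limits the precision. Scanner errors of a difference combine both spots' errors; over 282 probes printed several times, single-spot differences had an SD of 0.0809. The members, gene lists and thresholds were chosen with earlier results of these data known. Named genes were every member and, per list, up to 3 with the largest sizes, genes seen on 1 array only, and undetected or extreme markers; others were named after their values were seen. Older symbols were matched through the GRCm38.p6 table, which gave no probe coordinates; exon and UTR positions were not assigned. The alternatives were normexp, quantile, loess, median or no scaling, the authors' table, no filter on dim probes, other probe rules and other signal columns. The gene table was tested on simulated data. One marker gene of the lists is not reported here. Protein comparisons were not made, as no protein sequences were used here. R 4.3.3, limma 3.58.1, Python 3.11.15, numpy 2.4.6 and pandas 2.3.3 were used.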

Additional observations from a re-analysis of the deposited data

How the results depend on the processing

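Over 12 alternatives, 115 of the 120 values of the 10 genes moved by less than the SD of single-spot differences (0.0809). Tfrc moved to -0.51 with normexp background correction (offset 50) and quantile normalization, to -0.51 with normexp and the 75th percentile, and to -0.45 with the brightest probe per gene, which left 0 members at 0.5 or more. With dim probes kept, Slc40a1 moved to -0.45 and Hmox1 to -0.30, reached through probes not well above background, and the medians of the lists for iron uptake and for export and hepcidin control moved to -0.088 and -0.25. The count of all genes at 0.5 or more, 813 of 18562, became 267 and 265 under the normexp settings. It was 4890 with dim probes kept, which brings in a larger set of genes. Among the 8842 genes above the 75th percentile, an alternative added after seeing the data, it was 100. The count at 1 or more, 123, became 38, 36, 1735 and 12 in the same order. Mt2 ranged from 0.41 to 0.49 with dim probes left out. No paired analysis was possible because each group held 1 array. Signal over background limits the Ensembl-based probes of Slc40a1 and Hmox1 and most red cell genes.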

Other observations

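Flvcr2, which encodes a membrane transporter related to the heme exporter gene Flvcr1, passed the background limit in the heated sample and not in the control. Its 1 probe (mm9 chr12:87154338-87154397) gave a processed signal of 131 ± 17.3 with heat and 6.35 ± 6.37 without. At the main settings this gave a lower bound of 4.35-fold, which leaves out the scanner error. The bound sets the heated sample against the lowest control signal that counted as well above background. With normexp, which shrinks differences of dim probes, the log2 difference was 1.53 after quantile normalization and 1.61 after the 75th percentile. The value rests on 1 spot per array. Slc30a2, a zinc transporter gene, likewise passed with heat alone, with 27.3 ± 5.86 against 13.6 ± 6.36, and gave no bound above 1. Over all probes of the array, passing with heat alone was more common than passing in the control alone.

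Among 134 usable probes of the 80 pathway genes, 4 lay at 0.5 or more in size (2.99%), against 4.41% of all usable probes, and in each case the gene's other probes lay closer to 0. They were single probes of Isca1 (0.85, signals of 776 and 441), Slc30a9 (-0.64, signals of 30.4 and 48.8), Slc39a9 (0.60, signals of 81.0 and 55.0) and Lrp1 (0.58, signals of 1015 and 699). At Slc39a9 the probe with signals of 773 and 899 had the opposite sign, -0.18. Over all 6553 genes with several usable probes, the SD of the differences between probes of 1 gene had a median of 0.0979.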
